A study of Rattus norvegicus with 12 samples.

Results

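Phospholipases A and lysophospholipid acyltransferases were described in the livers of 6 PCK rats and 6 control rats. The gene family was a list of 10 symbols, of which 9 named a probe set in the array's annotation, among 16592 named genes in all. These were Pla1a, Pla2g2a, Pla2g4a, Pla2g6, Pla2g7, Pla2g12a, Pla2g15, Lpcat1 and Lpcat3. Lpcat2 was named by no row of the annotation and was not analysed here. The symbols were selected on their place in phospholipid remodelling, with the PCK and control signals of these same livers already known. Their differences between the groups are therefore given as a description, and no call of a member is read as a result.

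RNA from snap-frozen liver was measured on Affymetrix microarrays, 1 array for each animal. All 12 rats were male and 10 weeks old and ate a standard diet with 19% protein. The PCK rats, of the Crj:CD/SD strain, had cystic livers, and the controls were healthy Sprague Dawley rats. The PCK line is a spontaneous model of recessive polycystic kidney disease with a mutation in Pkhd1. The labels do not say whether the controls came from the same colony, so strain background and disease cannot be told apart.

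Phospholipases A release a fatty acid and a lysophospholipid from a membrane phospholipid, and lysophospholipid acyltransferases put a fatty acid back. This cycle of deacylation and reacylation, known as the Lands cycle, sets which fatty acids membrane phospholipids carry. It supplies arachidonic acid for prostaglandins and leukotrienes, and lysophospholipids that act on receptors. In liver it shapes the phosphatidylcholine of membranes and lipoproteins.

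Promoter windows of 300 bases, 250 before and 50 after the start of the gene, are shown for Pla1a, the member with the largest difference between the groups, and for Lpcat3, the member whose signal lay farthest from the floor of the scale. Both are RefSeq sequences of build GRCr8 on the plus strand, at chr11:75825376-75825675 for Pla1a and chr4:159154440-159154739 for Lpcat3. Capitals mark matches on either strand to the TATA box (as TATAAA), the CCAAT box (by these letters), the GC box (as GGGCGG) or the AP-1 site (as TGANTCA).
Pla1a: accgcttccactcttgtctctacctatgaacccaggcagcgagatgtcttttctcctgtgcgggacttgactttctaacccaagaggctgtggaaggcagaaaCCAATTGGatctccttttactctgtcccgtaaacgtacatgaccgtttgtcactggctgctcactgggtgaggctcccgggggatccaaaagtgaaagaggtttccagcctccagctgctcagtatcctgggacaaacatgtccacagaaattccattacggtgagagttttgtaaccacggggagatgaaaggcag
Lpcat3: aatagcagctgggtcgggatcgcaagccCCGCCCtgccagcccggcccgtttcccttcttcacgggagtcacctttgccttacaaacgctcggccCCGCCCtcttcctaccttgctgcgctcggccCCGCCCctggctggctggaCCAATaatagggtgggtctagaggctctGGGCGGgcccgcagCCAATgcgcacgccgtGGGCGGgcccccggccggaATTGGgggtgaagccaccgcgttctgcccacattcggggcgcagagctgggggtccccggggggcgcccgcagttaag

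The windows differed in composition. That of Pla1a held 2 CCAAT matches, which overlap on opposite strands, 9 CG pairs and a GC content of 51.0%. That of Lpcat3 held 3 CCAAT matches, 5 GC box matches, 27 CG pairs and a GC content of 69.7%, where the median of 33469 windows was 51.7%. CCAAT occurred in 37.5% of all windows, the GC box in 33.1%, TATAAA in 14.2% and the AP-1 letters in 7.33%. Among the windows of the members, the Pla2g4a window held 1 TATAAA match and the Pla2g7 window 1 AP-1 match. The Pla2g4a match was on the opposite strand (as TTTATA), at -108 to -102 from the start. Binding of factors was not measured.

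Signals are log2 values on a scale from 5.14 to 13.98, with a median of 5.66 over all probe sets and livers. Differences are PCK minus control on that scale, with the moderated standard error (SE) of limma, a linear model fitted to all genes. In whole liver, more cells of a type and more RNA in each cell cannot be told apart. The means of Pla2g7 and Lpcat1 lay below the table median in both groups, a range in which real signal and background look alike.

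Pla1a stood out among the members by the size of its difference. It encodes a secreted phospholipase A1 that cleaves phosphatidylserine and makes lysophosphatidylserine. The 6 control livers ran from 5.55 to 5.86 (log2 signal, median 5.67), at the median of the table. The PCK livers ran from 7.30 to 8.12 (median 7.74), so every PCK liver was above every control liver. The means were 5.69 ± 0.12 and 7.73 ± 0.31 (SD, n = 6 each), a difference of 2.03 ± 0.13 (log2, SE) or 4.09-fold. Since the control level is near background, that fold is not exact. PCK livers varied more than controls in Pla1a, with PCK 1 lowest and PCK 6 highest.

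Pla2g2a and Pla2g12a, members that are secreted phospholipases A2, overlapped between the groups. Pla2g2a encodes the group IIA enzyme, an acute phase and antibacterial secreted phospholipase. Its control livers ran from 5.62 to 6.56 (median 5.65) and its PCK livers from 5.53 to 6.39 (median 5.77). The means were 5.83 ± 0.37 and 5.84 ± 0.29 (SD, n = 6 each), a difference of 0.0052 ± 0.18 (log2, SE). The spread came from 1 liver in each group: control 6 was at 6.56 with the other controls at 5.90 or below, and PCK 6 was at 6.39 with the other PCK livers at 5.86 or below. With control 6 and PCK 6 left out the difference was 0.040. Both group medians of Pla2g2a lay near the table median, where real signal and background are hard to tell apart.

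Pla2g12a, a secreted phospholipase A2 of an atypical group, ran from 6.28 to 6.86 in control livers (median 6.46) and from 6.11 to 6.52 in PCK livers (median 6.32). The groups overlapped, and the difference was -0.20 ± 0.11 (log2, SE; means 6.52 ± 0.23 and 6.33 ± 0.15, SD, n = 6 each). Control 5 and control 6 were the highest, and without control 5, control 6 and PCK 6 the difference was -0.057.

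The intracellular phospholipases A2 moved in opposite directions. Pla2g4a encodes the calcium-dependent cytosolic enzyme that prefers phospholipids with arachidonic acid. Control livers were at 5.81 to 5.93 (median 5.87) and PCK livers at 6.11 to 6.45 (median 6.16), without overlap. The means were 5.87 ± 0.056 and 6.20 ± 0.12 (SD, n = 6 each), a difference of 0.33 ± 0.053 (log2, SE), or 1.26-fold. PCK 6 was the highest, 0.25 above the next PCK liver.

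Pla2g6 encodes the calcium-independent phospholipase A2 beta, which has roles in membrane turnover and mitochondria. It was the member with lower signal in every PCK liver. Control livers ran from 6.08 to 6.31 (median 6.14) and PCK livers from 5.85 to 5.93 (median 5.87). The means were 6.16 ± 0.090 and 5.88 ± 0.037 (SD, n = 6 each), a difference of -0.29 ± 0.038 (log2, SE), so that the control level was 1.22-fold the PCK level. The PCK livers lay closer together than the controls, of which control 2 and control 5 were highest.

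Pla2g7 encodes the platelet-activating factor acetylhydrolase of plasma, which macrophages make and which also cleaves oxidised phospholipids. Control livers were at 5.32 to 5.42 (median 5.37) and PCK livers at 5.46 to 5.66 (median 5.51), without overlap. The difference was 0.16 ± 0.033 (log2, SE; means 5.37 ± 0.036 and 5.53 ± 0.077, SD, n = 6 each). All 12 values lay below the table median, the highest just under it, so the size of this difference is not a measure of fold.

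Pla2g15 encodes the lysosomal phospholipase A2, which is abundant in macrophages of mouse lung. Control livers ran from 5.92 to 6.02 (median 5.99) and PCK livers from 6.04 to 6.32 (median 6.20). The lowest PCK liver, PCK 4, was just above the highest control liver. The difference was 0.22 ± 0.048 (log2, SE; means 5.98 ± 0.040 and 6.20 ± 0.12, SD, n = 6 each), or 1.16-fold.

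Of the acyltransferases Lpcat3 had the firmer measurement. Lpcat3 is the main lysophosphatidylcholine acyltransferase of mouse liver, places polyunsaturated fatty acids in phospholipids, and is a target of the liver X receptors there. Control livers were at 11.00 to 11.16 (median 11.11) and PCK livers at 11.35 to 11.51 (median 11.42). The groups did not overlap and both were narrow, with means of 11.09 ± 0.059 and 11.42 ± 0.057 (SD, n = 6 each). PCK livers exceeded control livers by 0.33 ± 0.032 (log2, SE), or 1.26-fold, and at this level that gap does not depend on signal near the floor.

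Lpcat1, known for making the dipalmitoyl phosphatidylcholine of lung surfactant, was near the floor of the scale. Control livers ran from 5.47 to 5.57 (median 5.53) and PCK livers from 5.56 to 5.66 (median 5.65). The highest control liver, control 3, was level with the lowest PCK liver, PCK 3. The difference was 0.11 ± 0.021 (log2, SE; means 5.52 ± 0.035 and 5.63 ± 0.038, SD, n = 6 each).

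**Figure D1:**
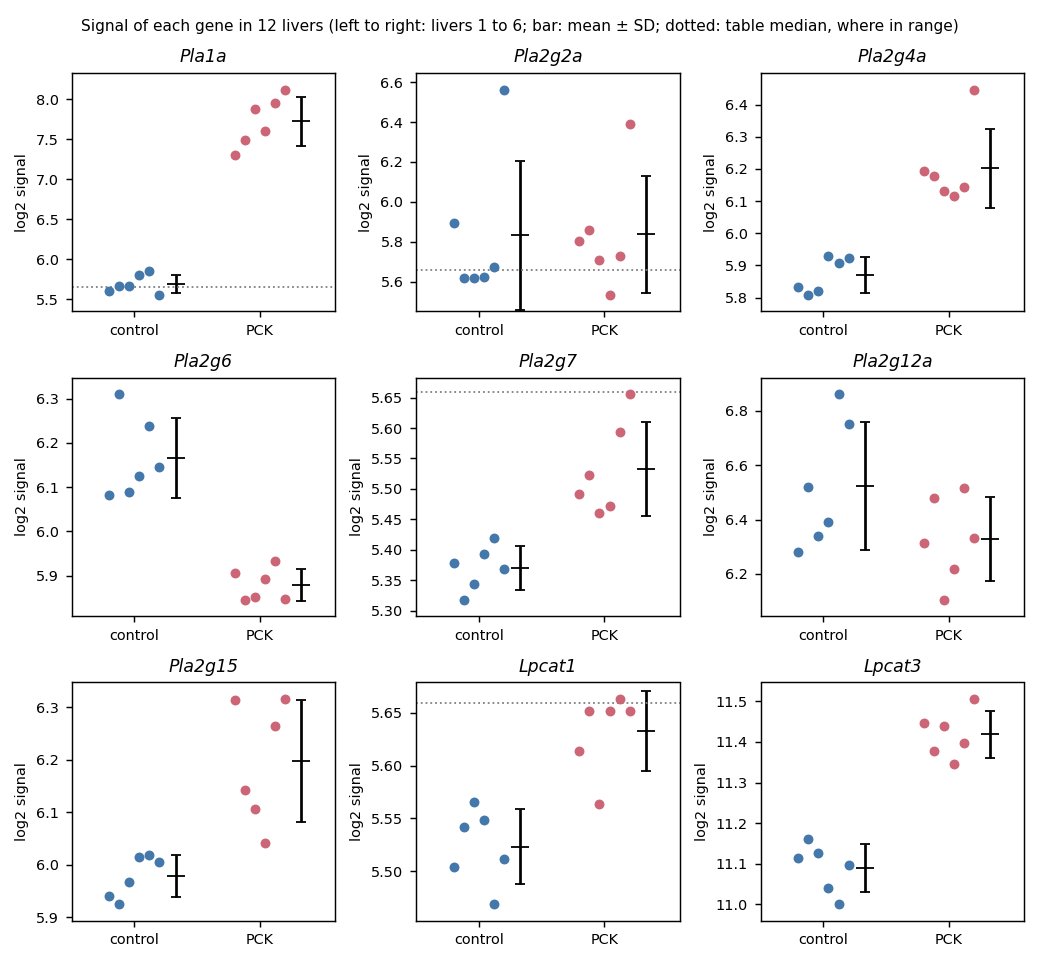
Log2 signal (vertical axis, a range of its own in each panel) of the 9 members in 6 control (blue) and 6 PCK (red) livers, in the order of the liver numbers, with the mean ± SD beside the points and the table median of 5.66 dotted where it falls in range. Pla1a is at 5.55 to 5.86 in control and 7.30 to 8.12 in PCK livers, and the high Pla2g2a points are control 6 and PCK 6.

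Over the members, limma at an adjusted p under 0.05 called 7 of 9, with 6 higher and 1 lower in PCK livers. Over all genes the same rule called 38.3%, with 17.4% higher and 21.0% lower (2882 and 3480 genes). After cyclic loess, another normalization, 3243 genes were higher and 2748 lower. In 6 of 9 members the groups did not overlap, against 21.6% of all genes. The members were proposed with this contrast known, so nothing is read from these counts. The median difference was 0.16 over the members and -0.0067 over all genes, and Pla1a was the member past 2-fold.

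**Figure D2:**
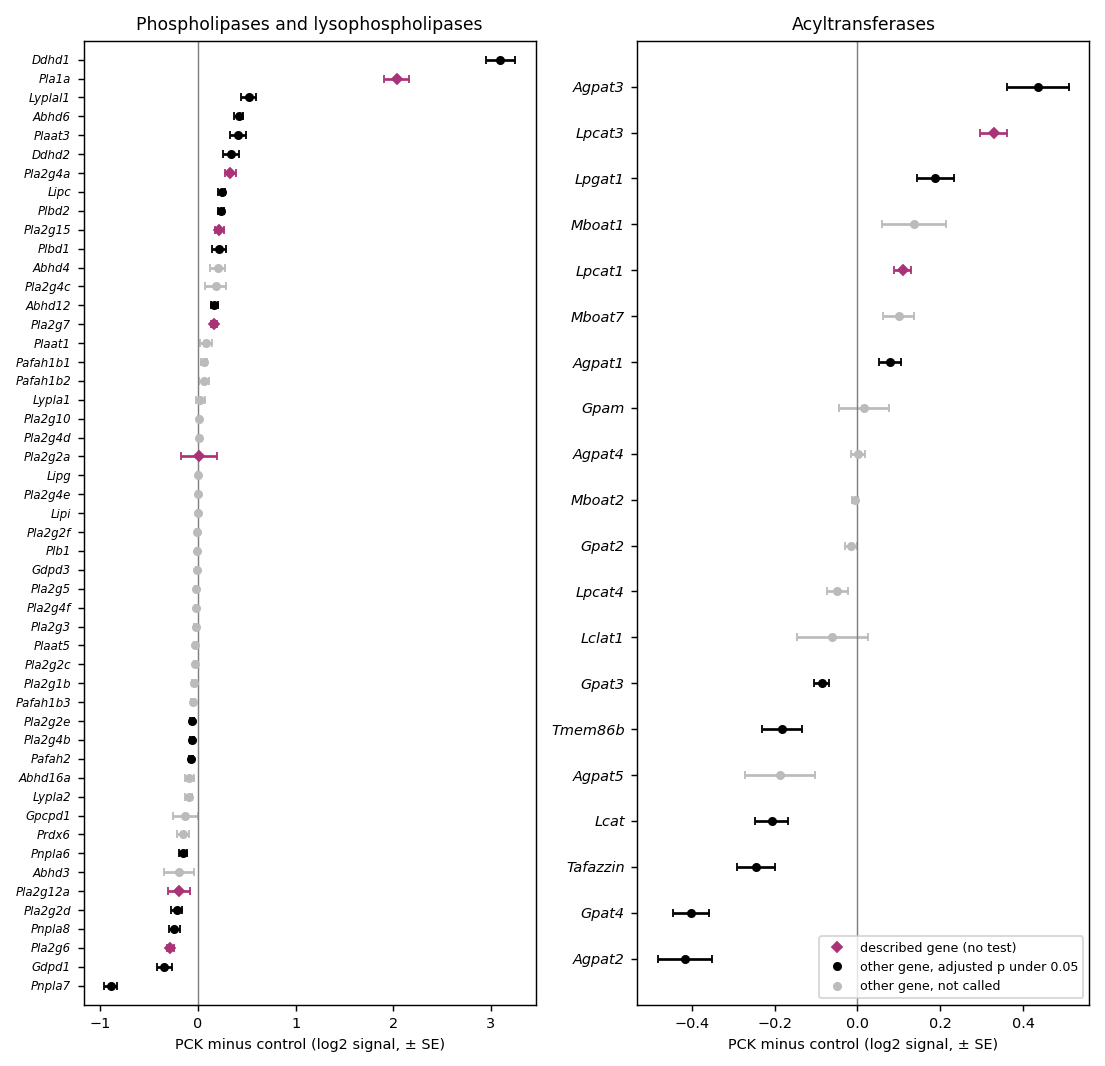
Difference between the groups (horizontal axis, PCK minus control, log2 signal, bars ± SE) of each phospholipase or lysophospholipase (left) and each acyltransferase (right), with the members as purple diamonds, other genes past the test in black and the rest in grey; the panels have different horizontal ranges. On the left Ddhd1 is at 3.10 and Pla1a at 2.03.

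Other phospholipases and lysophospholipases were listed beside the members. They do not rank the members, which were proposed with the contrast known. Of 43 measured, 9 rose, 8 fell and 26 did not pass the test (limma, Benjamini-Hochberg adjusted p under 0.05 over all genes). The 17 called are near the share of 38.3% called over all genes. The median difference of these 43 was -0.0094. After cyclic loess the counts were 10 and 5. In 19 of the 43 both group means were below the table median, among them the secreted phospholipases A2 Pla2g1b, Pla2g5 and Pla2g10.

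The largest rise among them was that of Ddhd1, an intracellular phospholipase A1 that prefers phosphatidic acid. Control livers ran from 7.46 to 8.49 (log2 signal, median 7.83) and PCK livers from 10.75 to 11.20 (median 10.94). The groups stood far apart and neither was near the floor. Ddhd1 rose by 3.10 ± 0.15 (log2, SE; limma adjusted p = 1.43e-07), or 8.55-fold.

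Lyplal1, related to the lysophospholipases, rose by 0.52 (adjusted p = 0.000376), and Abhd6, a monoacylglycerol and lysophospholipid hydrolase, by 0.41 (adjusted p = 2.39e-05). Plaat3, a phospholipase and acyltransferase of fat and other tissues, rose by 0.41 (adjusted p = 0.00219). Pnpla7, a lysophospholipase, fell most, from 9.98 to 10.44 in control livers (median 10.25) to 9.25 to 9.43 in PCK livers (median 9.33), at -0.89 ± 0.068 (log2, SE; adjusted p = 2.79e-06). These PCK livers were all below the controls. Gdpd1, a lysophospholipase D, fell (-0.34, adjusted p = 0.00309), as did the secreted phospholipase A2 gene Pla2g2d (-0.22, adjusted p = 0.00865), with both means below the table median (5.65 and 5.43). Pnpla8, a calcium-independent phospholipase A2 like Pla2g6, fell as well (-0.24, adjusted p = 0.00701). Without control 5, control 6 and PCK 6 the adjusted p of Pnpla8 was 0.0590.

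Acyltransferases outside the members moved in both directions. Of 18 measured genes of the list, 3 rose, 6 fell and 9 did not pass, beside 38.3% of all genes called. The median difference was -0.032. The 6 include Tmem86b, a lysoplasmalogenase and so a hydrolase, which fell (-0.18, adjusted p = 0.0105). Agpat3, which acylates lysophosphatidic acid with polyunsaturated fatty acids, rose from 9.67 ± 0.17 to 10.11 ± 0.093 (SD, n = 6 each; limma adjusted p = 0.000855), without overlap. Lpgat1, a lysophosphatidylglycerol and lysophosphatidylethanolamine acyltransferase, rose by 0.19 (adjusted p = 0.00633). Agpat1 rose by 0.079 with an adjusted p of 0.0421, which ran from 0.0244 to 0.122 over the alternatives.

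Agpat2, which makes phosphatidic acid, fell from 10.98 ± 0.099 to 10.56 ± 0.14 (SD, n = 6 each; limma adjusted p = 0.000468). Gpat4, a glycerol-3-phosphate acyltransferase of the endoplasmic reticulum, fell from 6.76 ± 0.080 to 6.36 ± 0.076 (adjusted p = 3.16e-05). In both genes every PCK liver was below every control liver. Tafazzin, which remodels cardiolipin, fell (-0.25, adjusted p = 0.00157), and so did Lcat, the plasma enzyme that esterifies cholesterol (-0.21, adjusted p = 0.00175). Among other enzymes of reacylation, Lpcat4 was at -0.049 (adjusted p = 0.151) and Mboat7, which places arachidonic acid in phosphatidylinositol, at 0.099 (adjusted p = 0.0522). Neither passed the test.

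Lpcat3 was set beside a list of liver X receptor targets. Of 10 measured genes 3 rose, 2 fell and 5 did not pass, beside 38.3% of all genes called. The 5 include the receptor genes themselves, Nr1h3 (0.077, adjusted p = 0.208) and Nr1h2 (-0.046, adjusted p = 0.404). Scd, the stearoyl-CoA desaturase, rose by 2.97 ± 0.46 (log2, SE; limma adjusted p = 0.000436), Smpdl3a by 0.44 (adjusted p = 0.00199) and Srebf1 by 0.37 (adjusted p = 0.0280, 0.0117 to 0.0647 over the alternatives). The Scd control livers were spread from 8.66 to 11.55, while the PCK livers were at 13.09 to 13.38. The size of the Scd rise therefore rests on an uneven control group. The sterol exporter genes Abcg5 and Abcg8 fell (-2.53, adjusted p = 8.03e-06, and -0.63, adjusted p = 0.000225). Their PCK means, 5.34 and 5.42, lay below the table median, so these sizes are not exact. Abca1, at -0.011 (adjusted p = 0.893), did not pass.

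Enzymes and receptors that use the products of phospholipases were compared through 39 measured genes. Of these, 11 rose, 8 fell and 20 did not pass, beside 38.3% of all genes called. The median difference was -0.0029. In 22 of the 39 both means lay below the table median. Among genes above that median, Ptgs1, the constitutive cyclooxygenase, rose from 7.18 ± 0.29 to 7.68 ± 0.13 (SD, n = 6 each; limma adjusted p = 0.00678). Alox5ap, which presents arachidonic acid to the lipoxygenase of leukotriene synthesis, rose by 0.30 (adjusted p = 0.0199). The gene of that lipoxygenase, Alox5, rose by 0.089 (adjusted p = 0.000245) but lay below the table median in both groups (5.34 and 5.43). Lta4h, a later enzyme of leukotriene synthesis, rose by 0.17 (adjusted p = 0.0353, 0.0219 to 0.0705 over the alternatives). Ltc4s, the leukotriene C4 synthase, fell (-0.19, adjusted p = 0.0118). The leukotriene B4 receptor gene Ltb4r, below the table median in both groups, fell as well (-0.066, adjusted p = 0.00373). Ptgs2, the inducible cyclooxygenase, rose by 0.10 (adjusted p = 0.00991) at a level near the floor, 5.38 in control and 5.49 in PCK livers.

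Ephx2, the soluble epoxide hydrolase that inactivates epoxides of arachidonic acid, fell most. Its control livers were spread from 6.08 to 8.32 (median 7.28), while the PCK livers were all at 5.57 to 5.70 (median 5.64), near the table median. The fall was -1.70 ± 0.32 (log2, SE; limma adjusted p = 0.00150). Ptgr2, a prostaglandin reductase, fell (-0.53, adjusted p = 1.07e-05), and so did Ptges3, a prostaglandin E synthase and co-chaperone (-0.38, adjusted p = 5.57e-05), and the lysophosphatidic acid receptor gene Lpar2 (-0.23, adjusted p = 0.00428). For Pla1a the receptor side is lysophosphatidylserine. Its receptor genes Gpr34, Gpr174 and P2ry10 were at 5.34, 5.39 and 5.31 in PCK livers, below the table median in both groups. Gpr34 rose by 0.083 (adjusted p = 0.00599) and Gpr174 by 0.045 (adjusted p = 0.0129, 0.00486 to 0.0577 over the alternatives), while P2ry10 was at 0.022 (adjusted p = 0.0605).

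**Figure D3:**
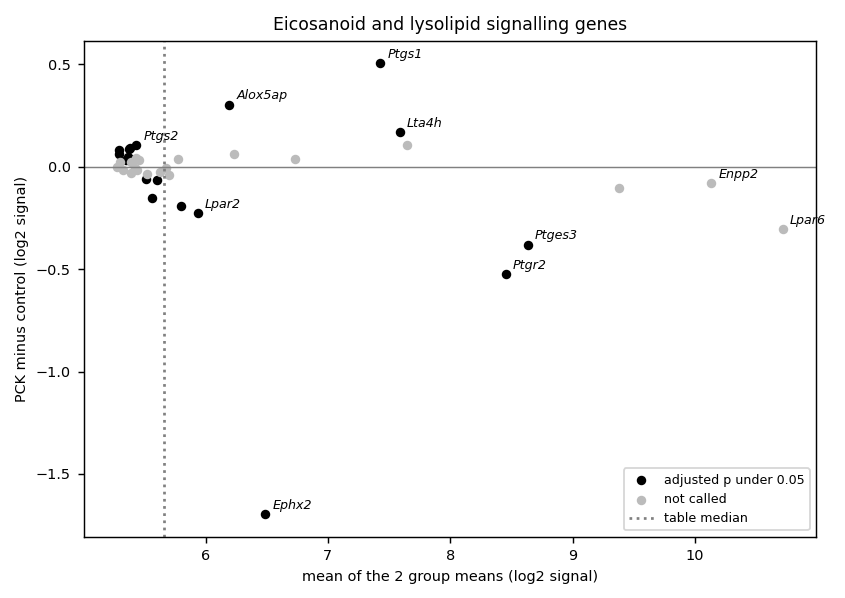
Difference between the groups (vertical axis, PCK minus control, log2 signal) against the mean of the 2 group means (horizontal axis, log2 signal) for 39 eicosanoid and lysolipid signalling genes, with genes past the test in black and the table median dotted. Ephx2 (-1.70) has the largest fall, and 22 genes have both means left of the dotted line, where differences are small.

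A short list was drawn up for phospholipase regulators and receptors, and action on a phospholipase was not measured. Of 6 measured, 3 rose and 2 fell, beside 38.3% of all genes called. Mapkapk2, a kinase downstream of p38 that regulates inflammatory transcripts, rose by 0.57 (limma adjusted p = 3.53e-05), Anxa1, whose protein was first described as an inhibitor of phospholipase A2, by 0.51 (adjusted p = 0.0103), and the kinase gene Camk2d by 0.17 (adjusted p = 0.00216). Plaa, the phospholipase A2 activating protein, fell (-0.34, adjusted p = 0.000281), as did Pla2r1, the receptor of secreted phospholipases A2 (-0.13, adjusted p = 0.000344).

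Markers of the cell types of whole liver were set beside these differences. Over all genes 17.4% were called higher and 21.0% lower. Of 9 measured macrophage and Kupffer cell markers 8 rose, and the mean of the list ran from 8.48 to 9.11 in control and from 9.37 to 9.85 in PCK livers (log2 signal). All 7 measured bile duct markers rose, with list means of 5.53 to 5.61 and 6.12 to 6.58. Of 8 stellate cell and fibroblast markers 5 rose and 2 fell (6.77 to 7.24 and 7.47 to 7.80). Hepatocyte markers were near the top of the scale in both groups (13.14 to 13.20 and 13.11 to 13.16), with 2 of 9 lower. The 2 were Hnf4a (-0.29) and Serpina1 (-0.067). Alb was at the maximum of the scale, 13.98, in every liver. Signals so near the top leave little room to show a change, so this list does not decide whether hepatocyte content differed. Endothelial markers gave 1 higher and 2 lower of 6 (7.46 to 7.66 and 7.28 to 7.47). All 7 neutrophil markers lay below the table median in both groups, with 3 rising and 1 falling (5.34 to 5.36 and 5.35 to 5.39). The part of these cells in the higher Pla1a, Pla2g4a, Pla2g7, Pla2g15, Ptgs1 and Alox5ap signal was not tested.

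Variation between animals of the same group was not used to choose the members. Pairs of members were correlated within each group, 36 pairs in 6 control and 6 PCK livers, 72 in all. No pair passed (exact permutation test, 2-sided, Benjamini-Hochberg adjusted p of 0.300 or more), while 7 had an unadjusted p under 0.05. With 6 livers the smallest p is 0.00139, so a single pair could not have passed over 72. The highest was Pla2g2a with Pla2g4a in PCK livers, at Pearson's r = 0.98 (exact permutation p = 0.00417, adjusted 0.300) and Spearman's rho = 0.94 (exact permutation p = 0.0167, adjusted 0.300). Without the 2 livers farthest from the Pla2g2a median r was 0.85 over the other 4. PCK 6 was the highest PCK liver in Pla1a, Pla2g2a, Pla2g4a, Pla2g7, Pla2g15 and Lpcat3. It was also the highest PCK liver in 8 of 9 macrophage and Kupffer cell markers and 6 of 7 bile duct markers. The same held for 6 of 8 stellate cell and fibroblast markers and 3 of 6 endothelial markers. PCK 6 was highest in 2 of 7 neutrophil and 0 of 9 hepatocyte markers. The part of these cells in the values of PCK 6 was not tested.

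**Figure D4:**
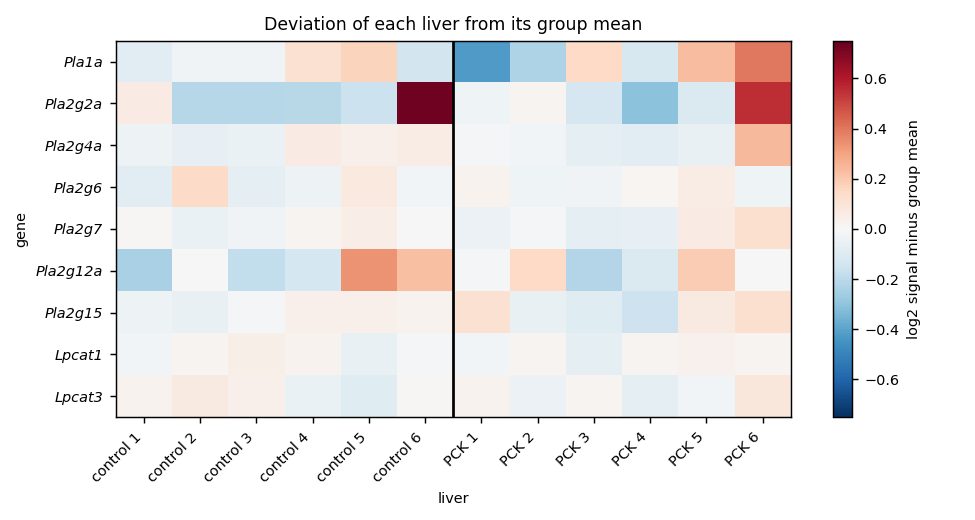
Log2 signal of each member (rows) in each liver (columns, control left and PCK right of the line) minus the mean of its group, from blue (below) to red (above). Control 6 (0.73) and PCK 6 (0.55) are highest in Pla2g2a, and PCK 6 is above its group mean in all members but Pla2g6.

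The gene most like each member was taken as the non-member with the highest Pearson correlation of deviations from the group means over the 12 livers. For Pla2g4a this was the chemokine receptor gene Cxcr2 (r = 0.965), for Pla2g15 the adaptor gene Sh3pxd2b (0.973) and for Pla2g12a Vwa8 (0.963). Cxcr2 lay near the floor in both groups (means 5.29 in control and 5.33 in PCK livers). Its highest PCK liver was PCK 6 (5.38), as in Pla2g4a. The correlation of Pla2g4a with Cxcr2 was 0.915 in control and 0.976 in PCK livers. For Pla2g2a it was Cmahp (0.945), for Pla2g6 Or2m12 (0.933), for Lpcat3 the carbonic anhydrase gene Car14 (0.930), for Lpcat1 Scara3 (0.929), for Pla2g7 Zfp819 (0.928) and for Pla1a the endothelial cadherin gene Cdh5 (0.923, with 0.648 in control and 0.958 in PCK livers). The best match of any gene was high: its median over all genes was 0.922, and 90% of genes lay between 0.876 and 0.963. Of the members Pla2g15 and Pla2g4a were above that range, and the others were within it or at its upper end.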

How the data were processed

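Liver RNA of 12 rats was measured on 12 arrays. The authors deposited log2 signals for 19239 probe sets, a unit read from their range; the sorted values of all columns are identical, as quantile normalization gives. Per the labels' protocols RNA was isolated with Trizol and labelled as biotinylated cRNA. How probes were summarised, and on which array type, is not given in the sources used here. Normalization of this kind removes differences in total RNA, and no detection calls were used.

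Groups and replicate numbers came from the sample titles. The annotation named 16592 probe sets with 1 gene symbol each; 3326 older symbols were replaced by those that RefSeq's GRCr8 table gives for the probe set's gene number. limma 3.58.1 in R 4.3.3 (lmFit, eBayes) was fitted to all named genes, with Benjamini-Hochberg adjustment, a threshold of 0.05 and no filter. The arrays' number limits the precision. The labels call them biological replicates. The fit was checked on simulated data. Correlations used exact permutation over all pairings (scipy 1.17.1). Figures were drawn with matplotlib 3.10.9.

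The members and lists were chosen with earlier results of these data known. Outside the members, up to 4 called genes with the largest differences in each direction of a list were named. Others were named after their values were seen: Lpcat4, Mboat7, Abca1, Pla2g1b, Pla2g5, Pla2g10, Gpr34, Gpr174, P2ry10, Tmem86b, Nr1h3, Nr1h2, Ltc4s, Ltb4r and Alox5. Alternatives varied normalization, signal filter, probe sets, variance model, array weights, block and threshold, and left out arrays.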

Additional observations from a re-analysis of the deposited data

Results flagged for a closer look

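Of 18 groups of 6 livers, 2 held a liver far from the others by Dixon's criterion, which sets the gap to the nearest liver against the range of the group; chance gives about 1 in 20 groups. Control 6 had a Pla2g2a signal of 6.56, with 0.67 between it and the next control liver, a ratio of 0.706. PCK 6 had a Pla2g4a signal of 6.45, with 0.25 to the next PCK liver, a ratio of 0.762. PCK 6 was also the highest PCK liver in Pla2g2a, at a ratio of 0.622. Without control 6 and PCK 6 the difference of Pla2g4a between the groups was 0.29.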

How the results depend on the processing

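Under the 21 alternatives run, the differences moved by less than 1 SD of replicates: Pla1a ran from 1.93 to 2.12, Pla2g4a from 0.28 to 0.36, Pla2g6 from -0.30 to -0.25, Pla2g7 from 0.14 to 0.18, Pla2g15 from 0.19 to 0.25, Lpcat1 from 0.089 to 0.12 and Lpcat3 from 0.29 to 0.34. Pla2g2a changed sign, from -0.11 to 0.15, and Pla2g12a ran from -0.25 to -0.057. The signal filter, the use of all probe sets, the variance model and the block leave a difference of group means unchanged by design. Leaving out 1 liver of 6 can move it only a little. Small changes under these settings are therefore not a strong check. The filter on signal left Pla2g7 and Lpcat1 untested. Of the counts of calls 1 moved by over 1.5 times: with genes above the median signal alone, 8 eicosanoid and lysolipid signalling genes were called, of 17 tested. The replicate number as a block gave 7 called members, 16 other phospholipases, 8 acyltransferases and 5423 genes. Deviations of same-numbered livers correlated at -0.14 to 0.17, highest for number 6. Livers of different numbers were not compared, so this does not decide whether the numbers pair the animals. Leaving out control 5, control 6 and PCK 6, or control 6 and PCK 6, was chosen after seeing the data. Members near the table median are limited by signal over background.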
